A study of Homo sapiens with 4 samples.

Results

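Interferon-stimulated genes are the transcripts that cells switch on when interferon, or a sensor of foreign nucleic acid, reports an infection. A list of 48 such genes was followed in 2 human cutaneous T cell lymphoma lines. The genes were chosen by name, with earlier results of these data known. Every probe set whose only gene symbol in the array annotation was a listed name was taken. All 48 were found, through 89 probe sets, among 19775 genes and 54675 probe sets on the array. MyLa was derived from mycosis fungoides, a skin lymphoma of T cells, and HH from a cutaneous T cell lymphoma. Each was cultured for 40 hours in 0.1% serum, with the cytokine isoform IL-32γ at 5 ng/ml or without it, so that the 4 conditions are MyLa with IL-32γ, MyLa control, HH with IL-32γ and HH control. Each condition was measured on 1 array with biotin-labelled total RNA, and each line is a single line, so the 2 lines stand for 2 lymphomas and no more. Expression is given per probe set on the log2 scale, a probe set under 5 counts as not measured, and a level was never set against that of another gene because probes differ in brightness.

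As background, type I interferon binds the receptor chains IFNAR1 and IFNAR2, the kinases JAK1 and TYK2 are activated, and a factor that contains IRF9 moves to the nucleus and binds the interferon-stimulated response element of its target genes. The products hinder infection at many steps: they bind or degrade foreign RNA, stop translation, block the fusion or release of virus particles, attach ISG15 or ADP-ribose to other proteins, or strengthen the sensing itself. Some of these genes are also held at a level without added interferon, and tumour lines are known to differ in which of them they keep on or have lost.

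The arrays were alike in the number of probe sets at 5 or more, between 23433 and 23686. Of 9 T cell markers with a probe set, 4 were at 5 or more on the MyLa arrays (CD3D, CD3G, CD247 and CD2) and 7 on the HH arrays, where CD3E, CD5 and CD4 were also measured. CD7 and LCK were below 5 on every array. Markers of B cells (4 genes), myeloid cells (3) and NK cells (5) were below 5 on every array, and of 5 keratinocyte markers KRT10 alone was measured. Of 5 fibroblast markers, COL3A1 and COL1A1 were measured on both MyLa arrays, with a list sum on the linear scale of 10999 with IL-32γ and 11723 in the control, against 70 with IL-32γ and 47 in the control in HH. COL1A1 reached 5.66 on the HH IL-32γ array, and COL1A2, DCN and PDGFRA were below 5 on every array. The 5′ probe set of ACTB, which reads low in shortened RNA, read 11.81 with IL-32γ and 10.12 in the control in MyLa, against 13.58 with IL-32γ and 12.69 in the control in HH, while its 3′ probe set lay between 15.07 and 15.27 on all 4 arrays. The part of the fibroblast genes and of RNA quality in the differences between the lines described next was not tested.

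The question between the lines was which interferon-stimulated genes each lymphoma carried as measurable transcripts. The lines differed in which genes of the list were on. PARP12, RSAD2, DTX3L, PARP9, IFIT1, IFIT5, GBP1, GBP4 and GBP5 were at 5 or more on both MyLa arrays and below 5 on both HH arrays, and HERC5, HERC6, EPSTI1, PARP14, IFI44L, GBP2 and IFI6 showed the reverse. These 16 of the 40 members at 5 or more on at least 2 arrays were 9 for MyLa (22.5%, against 7.23% of 11010 genes) and 7 for HH (17.5%, against 6.08%). The counts depend on the cut at 5 and on the probe set that stood for a gene, and the list was not chosen blind to these data. In HH IFI6 read 5.08 and 5.28 and HERC6 read 5.04 with IL-32γ, while IFIT1 read 5.78 with IL-32γ in MyLa. Another EIF2AK2 probe set, not counted, was measured in HH only. Another 24 members were at 5 or more on all 4 arrays, EIF2AK2 was so on 1 array, and USP18, OAS1, OAS3, MX1, IFI27, XAF1 and LGALS3BP were below 5 on all 4 (14.6% of the 48 members, against 43.1% of all genes), the highest of their values being 4.59.

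**Figure D1:**
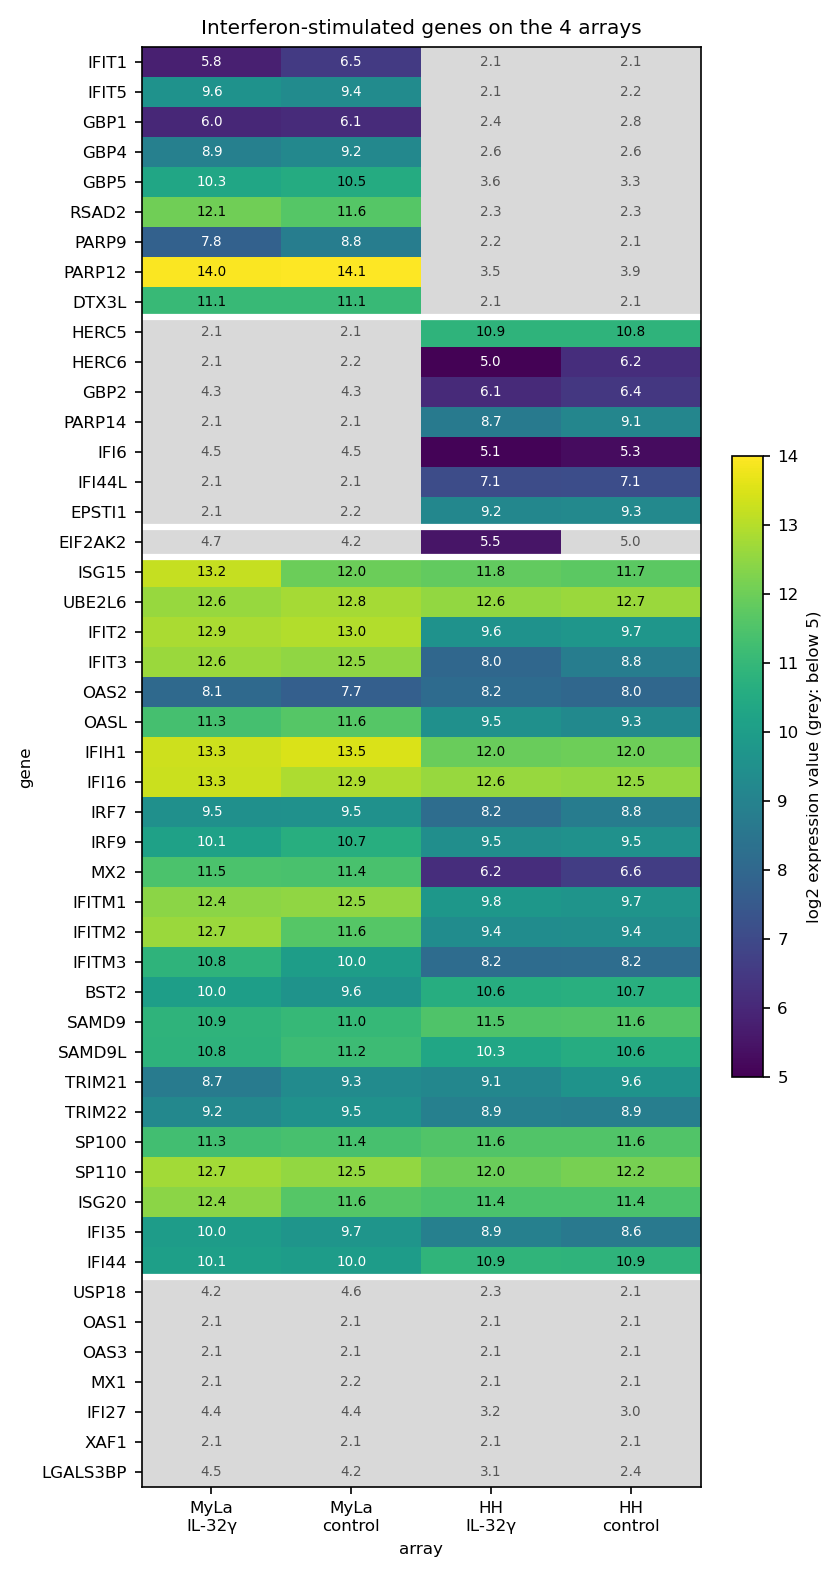
Log2 expression values of the 48 interferon-stimulated genes (rows) on the 4 arrays (columns), 1 probe set per gene, with values below 5 in grey. From top to bottom stand the 9 genes measured in MyLa only, the 7 measured in HH only, EIF2AK2, the 24 measured on all 4 arrays and the 7 below 5 on all 4.

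MyLa was set against HH in limma, taking both arrays of each line as replicates. Nothing in the labels makes these separate cultures of 1 condition, so their spread holds the response to IL-32γ as well as noise, and the p-values measure only the spread between these arrays. With an adjusted p under 0.05 and a difference of at least 2-fold, 19 of 40 members were higher in MyLa (47.5%, against 18.7% of 11010 genes) and 5 were lower (12.5%, against 16.8%). Together 24 of 40 differed (60%, against 35.5%). Since the list was chosen with earlier results of these data known, these shares describe it and do not test it. The median absolute difference of the members was 1.21 on the log2 scale, against 0.69 over all genes, and their median signed difference was 0.86, against 0.03. Where 1 line was below 5, its values were raised to 5, and the fold is then a lower bound. If both its arrays were below 5, its spread was 0 by construction. The p-value then holds only the spread of the other line, through which alone the gene entered the fit. That held for 9 of the members called higher in MyLa and 5 of those called lower, so their small p-values are no added support. Below, a fold given as at least, or a difference given as a bound, marks such genes. A p-value beside it is to be read in that way. Without the HH IL-32γ array or without the HH control array, the fit had 1 residual degree of freedom, and 10 or 11 members, in that order, were called higher in MyLa in place of 19. Over all genes the share called higher in MyLa was then 8.51% or 9.48%, in the same order, in place of 18.7%.

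ISG15 itself, the ubiquitin-like protein that infected cells attach to other proteins, was measured in both lines, while its ligases HERC5 and HERC6 were measured in HH only. ISG15 read 13.22 with IL-32γ and 11.99 in the control in MyLa, and 11.82 with IL-32γ and 11.73 in the control in HH. UBE2L6, the conjugating enzyme for ISG15, read 12.60 and 12.78 in MyLa and 12.55 and 12.65 in HH, in the same order of conditions, which is kept from here on. Neither passed the test between lines (log2 difference 0.83 ± 0.46 SE for ISG15, limma adjusted p = 0.2, and 0.09 ± 0.12 for UBE2L6, adjusted p = 0.553). HERC5, the chief ligase that attaches ISG15 in human cells, read 2.13 and 2.13 in MyLa, against 10.86 and 10.85 in HH. It was at least 57.9-fold lower in MyLa (limma adjusted p = 4.89e-05, which holds the spread of HH alone). HERC6, its neighbour, which is the main ISG15 ligase in mice, read 2.13 and 2.20 in MyLa, against 5.04 and 6.17 in HH. HERC6 did not pass the test (-0.61 ± 0.42 SE, adjusted p = 0.283). USP18, which removes ISG15 and also damps the interferon receptor, had 4.19 and 4.59 in MyLa and 2.25 and 2.13 in HH, all below the floor.

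The IFIT genes, whose products bind foreign RNA, were higher in MyLa in all 4 cases. IFIT2 read 12.87 and 12.97 in MyLa, against 9.59 and 9.72 in HH, a 9.58-fold difference (limma adjusted p = 0.000208). IFIT3, which steadies the complex with IFIT1, read 12.63 and 12.49 in MyLa, against 8.0 and 8.83 in HH, a 17.7-fold difference (adjusted p = 0.00169). IFIT5, which binds the triphosphate end of RNA, read 9.58 and 9.36 in MyLa, against 2.15 and 2.18 in HH, at least 22.1-fold (adjusted p = 0.000128). All probe sets of IFIT5 are of a kind that can match several transcripts. The MyLa and HH values of these 3 genes lay far apart on every array. IFIT1, which binds RNA with an unfinished cap, was measured only a little above the floor, at 5.78 and 6.54 in MyLa, against 2.13 and 2.13 in HH, at least 2.24-fold (adjusted p = 0.035). Its call was lost when either HH array was left out (adjusted p = 0.252 and 0.248) or the MyLa control array (0.78 on the log2 scale, under 2-fold), and IFIT3 lost its call without either MyLa array (0.0592 and 0.0579).

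Oligoadenylate synthetases make the messenger that activates RNase L, and PKR, encoded by EIF2AK2, halts translation when it binds double-stranded RNA. OAS1 and OAS3 were at the lowest value of the arrays, 2.13, on every array and in both of their probe sets. OAS2, which lies next to OAS3, was measured in both lines, at 8.08 and 7.72 in MyLa and at 8.16 and 8.0 in HH, and did not pass the test (-0.18 ± 0.17 SE, limma adjusted p = 0.411). OASL, a relative without the enzyme activity that strengthens RNA sensing, read 11.34 and 11.63 in MyLa, against 9.52 and 9.27 in HH, and was 4.25-fold higher in MyLa (adjusted p = 0.00181). Without the HH IL-32γ array (adjusted p = 0.056) or the HH control array (0.0604) OASL was not called. For EIF2AK2 the probe set that stood for the gene by its mean was at 4.67 and 4.24 in MyLa and 5.49 and 4.98 in HH, and did not enter the test. Its other measured probe set read 2.13 and 2.13 in MyLa, against 7.27 and 7.22 in HH, so that PKR transcript was seen above the floor in HH only.

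The 4 sensors and factors on the list were measured on every array. IFIH1, the sensor of long double-stranded RNA, read 13.33 and 13.48 in MyLa, against 11.95 and 12.02 in HH, and was 2.68-fold higher in MyLa (limma adjusted p = 0.00165), a call lost without the HH IL-32γ array (adjusted p = 0.0531) or the HH control array (0.0504). IRF7, the factor that drives interferon alpha genes, read 9.51 and 9.54 in MyLa, against 8.20 and 8.78 in HH, 2.05-fold (adjusted p = 0.0262). That difference lay just past 2-fold and was under it after quantile normalisation or median centring (0.99 on the log2 scale in both) or without the HH IL-32γ array (0.74), and without either MyLa array its adjusted p was 0.181 or 0.192. With no floor and no filter it was 0.139. IRF9, the DNA-binding subunit named above, read 10.14 and 10.66 in MyLa, against 9.46 and 9.55 in HH, and stayed under 2-fold (0.89 ± 0.21 SE, adjusted p = 0.0304). For the DNA sensor IFI16 the values were 13.28 and 12.88 in MyLa and 12.60 and 12.53 in HH (0.52 ± 0.17 SE, adjusted p = 0.0688).

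Among the GTPases, MX2, which restricts HIV and herpesviruses, read 11.46 and 11.40 in MyLa, against 6.17 and 6.64 in HH, and was 32.6-fold higher in MyLa (limma adjusted p = 0.000292). MX1, its neighbour, which restricts influenza virus, was between 2.13 and 2.20 on all 4 arrays. The guanylate-binding proteins, which attack the vacuoles and membranes of pathogens, were split between the lines. GBP5 read 10.33 and 10.54 in MyLa, against 3.62 and 3.28 in HH, at least 43.3-fold (adjusted p = 7.92e-05). GBP4 read 8.90 and 9.20 in MyLa, against 2.63 and 2.63 in HH, at least 16.6-fold (adjusted p = 0.000228). GBP1 had 6.01 and 6.12 in MyLa, against 2.38 and 2.83 in HH, at least 2.10-fold (adjusted p = 0.00281), a bound that ended with a floor of 6 (0.07 on the log2 scale). Its probe set can match several transcripts, so how much of the signal came from GBP1 is uncertain. Without such probe sets GBP1 stood at 0.55 on the log2 scale and was not called. GBP2 went the other way, with 4.30 and 4.32 in MyLa, against 6.06 and 6.45 in HH, at least 2.38-fold lower in MyLa (adjusted p = 0.00708). With a floor of 6 it too was no longer called (-0.25). Without either HH array GBP1 was not called (adjusted p = 0.0555 and 0.0548), nor was GBP2 without either MyLa array (0.0934 and 0.0946).

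Of the factors that act at membranes, RSAD2, or viperin, which makes a nucleotide that ends viral RNA chains, had 12.06 and 11.61 in MyLa, against 2.29 and 2.31 in HH, and was at least 114-fold higher in MyLa (limma adjusted p = 0.000128). The IFITM proteins, which block the fusion of virus with cell membranes, were measured in both lines and higher in MyLa. IFITM1 read 12.44 and 12.50 in MyLa, against 9.75 and 9.67 in HH, 6.74-fold (adjusted p = 0.000235). IFITM2 read 12.66 and 11.62 in MyLa, against 9.39 and 9.41 in HH, 6.66-fold (adjusted p = 0.00829). IFITM3 read 10.84 and 9.996 in MyLa, against 8.17 and 8.23 in HH, 4.66-fold (adjusted p = 0.00884). These 3 genes are near copies of each other. The probe sets that stood for them can match several transcripts, so which gene carried the signal is uncertain. Without either HH array IFITM2 (adjusted p = 0.144 and 0.14) and IFITM3 (0.147 and 0.14) were no longer called, nor were they with no floor and no filter (0.0757 and 0.0771). BST2, or tetherin, which holds budding virus on the cell, was slightly lower in MyLa and under 2-fold, at 10.04 and 9.63 in MyLa and 10.62 and 10.68 in HH (-0.82 ± 0.18 SE, adjusted p = 0.0242).

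The enzymes of ADP-ribosylation gave some of the widest contrasts of the list. PARP12, which attaches single ADP-ribose units to proteins, read 13.95 and 14.05 in MyLa, against 3.53 and 3.91 in HH, and was at least 513-fold higher in MyLa (limma adjusted p = 4.8e-05). Its only probe set can match several transcripts. DTX3L, a ubiquitin ligase, read 11.07 and 11.07 in MyLa, against 2.13 and 2.13 in HH, at least 67.2-fold (adjusted p = 4.8e-05). PARP9, the partner with which DTX3L forms a complex, read 7.81 and 8.80 in MyLa, against 2.16 and 2.13 in HH, at least 9.87-fold (adjusted p = 0.00463). That probe set can match several transcripts. The other PARP9 probe set was below 5 on every array, at 2.17 and 2.46 in MyLa and 2.13 and 2.13 in HH. PARP9 lost its call when the HH IL-32γ array (adjusted p = 0.113) or the HH control array (0.111) was left out. PARP14, an enzyme of the same class that also binds ADP-ribose, was in HH alone, with 2.13 and 2.13 in MyLa, against 8.67 and 9.12 in HH. It was at least 14.9-fold lower in MyLa (adjusted p = 0.000521), and as the mean of its 2 probe sets, 1 of which was at 2.13 on every array, its difference was -0.51 on the log2 scale and not past 2-fold.

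The remaining members were of mixed or unknown function. EPSTI1, named for its induction between epithelium and stroma, read 2.13 and 2.20 in MyLa, against 9.16 and 9.25 in HH, and was at least 18.5-fold lower in MyLa (limma adjusted p = 8.6e-05). IFI44L read 2.15 and 2.13 in MyLa, against 7.10 and 7.12 in HH, at least 4.31-fold lower (adjusted p = 0.000382). Its neighbour IFI44 was measured in both lines, at 10.09 and 9.99 in MyLa and 10.90 and 10.86 in HH, under 2-fold (-0.85 ± 0.10 SE, adjusted p = 0.00491). IFI35, which interacts with other induced proteins, read 9.98 and 9.69 in MyLa, against 8.93 and 8.64 in HH, 2.07-fold higher (adjusted p = 0.0121), and lost that call without any 1 of the 4 arrays (adjusted p from 0.0713 to 0.122) and with no floor and no filter (0.0772). The nuclear body proteins SP100 and SP110, the antibody receptor TRIM21, the antiviral TRIM22, the exonuclease ISG20 and the growth-restricting proteins SAMD9 and SAMD9L were measured on all 4 arrays and not called. The differences of the 14 members on all 4 arrays that were not called ran from -0.85 to 0.89, with 8 higher in MyLa and 6 lower, and 5 of them (IRF9, BST2, SAMD9, SP110 and IFI44) had an adjusted p under 0.05 with less than 2-fold. IFI6, an inhibitor of apoptosis, was barely above the floor in HH (4.5 and 4.49 in MyLa, against 5.08 and 5.28 in HH; -0.18 ± 0.12 SE, adjusted p = 0.252).

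**Figure D2:**
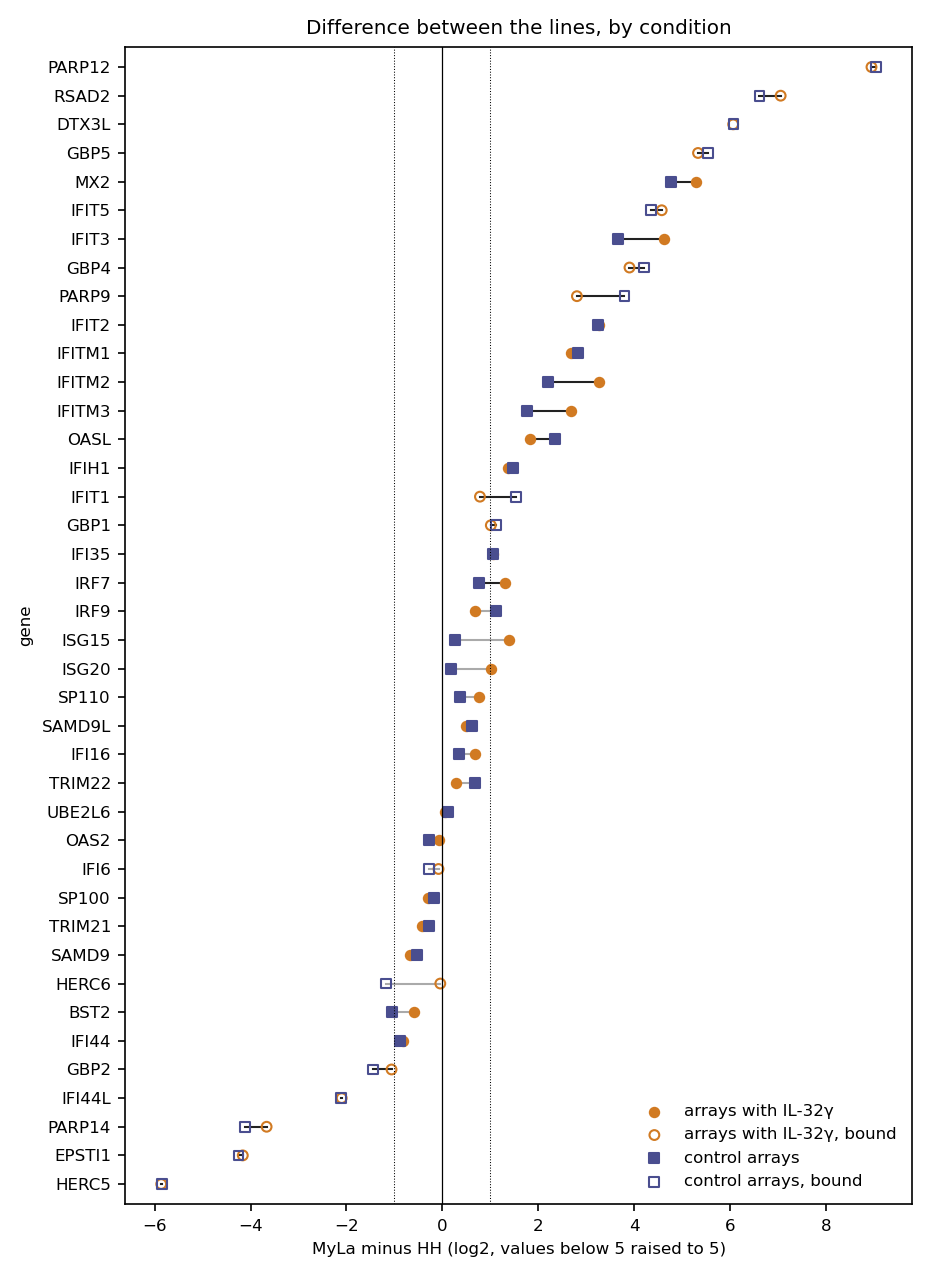
MyLa minus HH (log2, values below 5 raised to 5) for the 40 members tested, for the 2 arrays with IL-32γ (circles) and the 2 control arrays (squares); open symbols are bounds because 1 line was below 5, black connecting lines mark the 24 genes called and dotted lines 2-fold. PARP12 lies farthest to the right (9.00 in the fit) and HERC5 farthest to the left (-5.86).

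Among probe sets with a single gene symbol, those of a gene gave the same direction between the lines wherever several were measured. Of the members, 18 had 2 or more probe sets at 5 or more on some array. In all 18 the difference between MyLa and HH had the same sign in every such probe set, with a median spread of 0.69. In RSAD2, EPSTI1, GBP1, GBP5, IFIT5 and EIF2AK2 no other outcome was possible. There 1 line was below 5 in every measured probe set and was raised to 5. Probe sets below 5 on all 4 arrays, such as 1 each of PARP9, PARP14 and GBP4, were not counted. The 2 probe sets of RSAD2 gave bounds of 6.84 and 5.08, those of EPSTI1 -4.21 and -4.17, and those of GBP5 5.44 and 4.62. The spread was 1 or more in EIF2AK2, IFIT2, IFIT3, RSAD2 and SP100. IFIT2 had 3.26 in its brightest probe set and a bound of 0.20 in the other, which read 4.67 and 5.41 in MyLa and 2.19 and 2.19 in HH. SP100 lay between -2.32 and -0.23 in 5 probe sets, and IFIT3 had 4.15 and 5.28. One probe set assigned to both IFITM1 and IFITM2, not counted among the members, read 13.27 and 13.27 in MyLa, against 9.76 and 9.87 in HH. Another, assigned to both RNF31 and IRF9 and also not counted, read 8.74 and 8.59 in MyLa, against 9.53 and 9.74 in HH. Its direction was opposite to that of the IRF9 probe set (0.89).

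**Figure D3:**
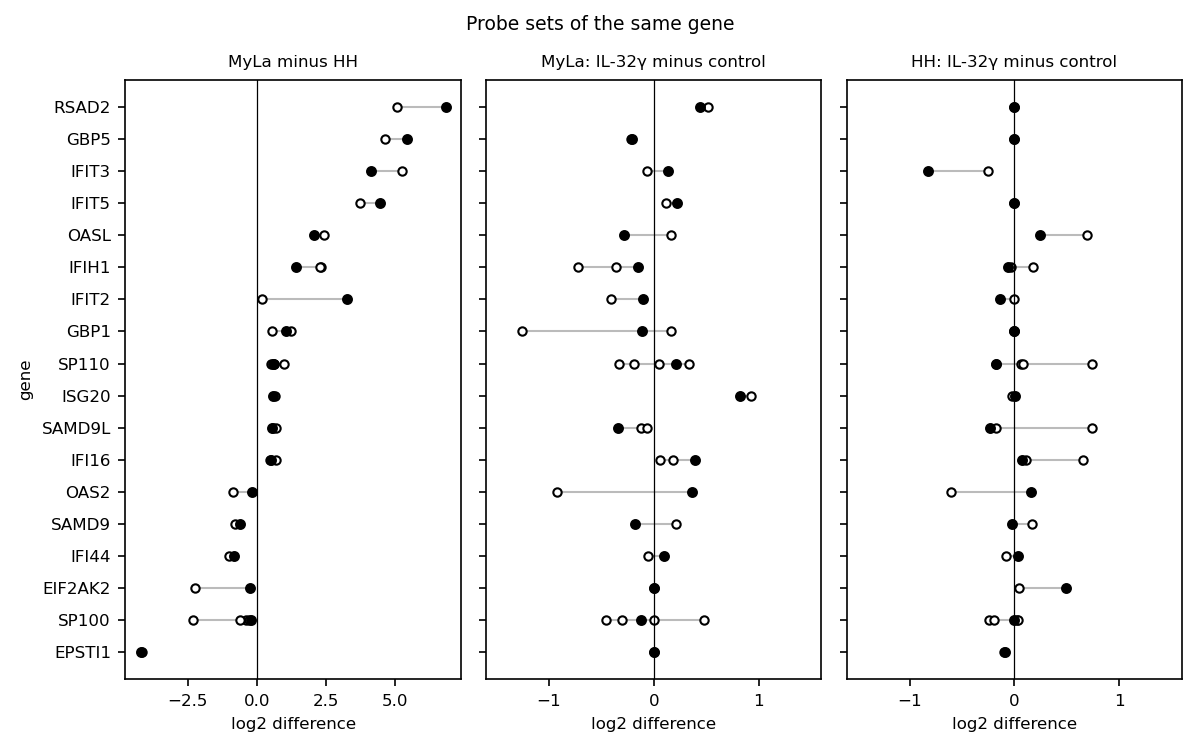
Log2 differences of each measured probe set (circles; filled, the probe set that stands for the gene) for the 18 members with 2 or more, with values below 5 raised to 5. Between the lines (left) all probe sets of a gene lie on the same side of 0, while the responses to IL-32γ in MyLa (middle) and HH (right) cross 0 in several genes.

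The sequence before these genes was examined for the interferon-stimulated response element, searched as GAAA, any 2 bases and GAAA again, on either strand in RefSeq promoters (GRCh38.p14, 250 bases before to 50 after the start of the gene). Promoters were at hand for 38 of 48 members, not for USP18, GBP2, GBP5, IRF7, TRIM22, OASL, OAS2, IFIT2, IFITM2 and MX2. The letters were found in 28 of the 38 (73.7%), against 4.38% of 27305 genes. They stood in 8 of 8 genes measured in MyLa only, in 5 of 6 measured in HH only, in 10 of 17 measured on all 4 arrays and in 4 of 6 below 5 on all 4. A match is a description of the letters and not of a site in use. The 6 members with the largest differences between lines whose promoter holds the letters are shown to let the element be seen in genes on in 1 line only. They are PARP12 (chr7:140062952-140063101, minus strand), RSAD2 (chr2:6877627-6877776, plus strand), DTX3L (chr3:122564192-122564341, plus strand), HERC5 (chr4:88456969-88457118, plus strand), IFIT5 (chr10:89414424-89414573, plus strand) and EPSTI1 (chr13:42992242-42992391, minus strand). OAS3 (chr12:112938324-112938473, plus strand) was added after its values were seen, as a gene below 5 on all 4 arrays that also holds the letters. Each stretch is 150 bases, 5′ to 3′ on the strand of the gene, and ends at the base before the start of the gene, or 4 (DTX3L) and 6 (IFIT5) bases after it where a match spans the start. Capitals mark the matches, which begin and end with TTTC where the element lies on the opposite strand; overlapping matches run together in HERC5.
PARP12: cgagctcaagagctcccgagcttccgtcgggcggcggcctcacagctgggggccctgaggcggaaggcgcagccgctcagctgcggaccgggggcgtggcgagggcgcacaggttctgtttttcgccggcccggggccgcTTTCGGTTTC
RSAD2: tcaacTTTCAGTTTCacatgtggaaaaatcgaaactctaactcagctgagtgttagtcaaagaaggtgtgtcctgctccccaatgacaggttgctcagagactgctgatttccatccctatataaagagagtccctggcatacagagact
DTX3L: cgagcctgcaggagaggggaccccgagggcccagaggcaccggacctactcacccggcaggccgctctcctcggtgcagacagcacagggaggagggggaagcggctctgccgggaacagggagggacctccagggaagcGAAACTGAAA
HERC5: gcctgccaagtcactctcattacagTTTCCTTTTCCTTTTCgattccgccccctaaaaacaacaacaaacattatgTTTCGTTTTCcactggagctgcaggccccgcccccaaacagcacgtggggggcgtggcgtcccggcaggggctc
IFIT5: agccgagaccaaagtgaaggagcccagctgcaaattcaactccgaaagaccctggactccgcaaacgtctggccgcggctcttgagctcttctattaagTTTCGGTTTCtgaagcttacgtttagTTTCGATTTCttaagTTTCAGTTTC
EPSTI1: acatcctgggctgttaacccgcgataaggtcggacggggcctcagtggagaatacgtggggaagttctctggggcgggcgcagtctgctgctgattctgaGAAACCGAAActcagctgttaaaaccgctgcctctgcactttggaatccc
OAS3: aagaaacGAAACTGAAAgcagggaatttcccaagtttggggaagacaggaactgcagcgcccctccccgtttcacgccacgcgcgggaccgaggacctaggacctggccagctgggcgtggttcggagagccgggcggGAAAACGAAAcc

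Some members are neighbours on their chromosome. Among RefSeq's protein-coding genes 13 pairs of members lay side by side, and 9 of them (69.2%) had the same pattern, against 31.4% of all 1128 pairs of members and 52.2% of 14336 adjacent pairs over all genes, with no test made. DTX3L and PARP9 start from opposite strands of 1 region: their promoter windows share 137 bases with a single match of the element, the one in capitals in the DTX3L stretch, and both genes were measured in MyLa only. PARP14, separated from DTX3L by PARP15 alone, was measured in HH only. HERC5 and HERC6 were both measured in HH only, and IFIT1 and IFIT5, like GBP4 and GBP5, in MyLa only. The 4 adjacent pairs with different patterns were IFI44L and IFI44, GBP1 and GBP2, OAS3 and OAS2, and MX2 and MX1.

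**Figure D4:**
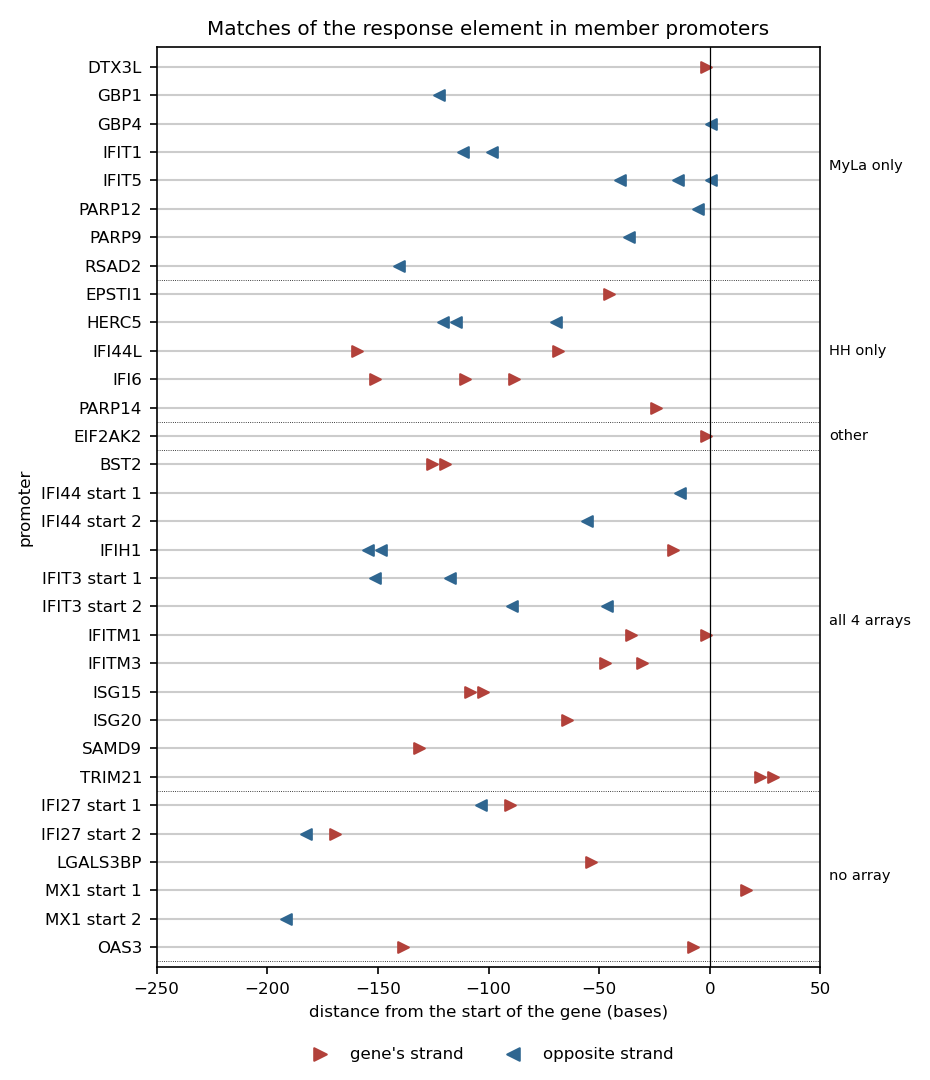
Positions of the response element letters (triangles, by strand) in the promoters of the 28 members that hold it, in bases from the start of the gene, grouped by the lines in which the gene was at 5 or more; for genes with several starts, the starts with a match are numbered along the chromosome. Matches stand on either strand and in every group, also in the genes below 5 on all 4 arrays.

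The other genes of the pathway came from 5 lists. All 17 type I and III interferon genes with a probe set were below 5 on every array, the highest being IFNB1 at 3.14 on the MyLa control array. Of 9 receptor chains and kinases tested, 1 was higher and 4 lower in MyLa, where 18.7% of all genes were called higher and 16.8% lower. The kinase TYK2 was higher by 2.06 (log2; limma adjusted p = 0.00134), and the receptor chains IFNAR2 (-1.26, adjusted p = 0.00199) and IL10RB (-1.30, adjusted p = 0.00499) and the kinase JAK2 (-1.44, adjusted p = 0.0381) were lower. IFNLR1, the receptor chain for type III interferon, read 2.13 and 2.13 in MyLa, against 9.91 and 9.95 in HH, a bound of -4.93. Its other probe set was at 2.13 on all 4 arrays, HH included. IFNAR1 was measured on all arrays, at 11.11 and 11.24 in MyLa and 11.27 and 11.42 in HH, and not called.

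Lists this short hold few genes to set against those shares. Of 4 transcription factors tested, 1 was higher and 1 lower: IRF1, an activator of these genes, was higher in MyLa by 1.14 (limma adjusted p = 0.00239). IRF2, which competes with IRF1 for the same DNA element, read 2.14 and 2.14 in MyLa, against 11.55 and 11.35 in HH, a bound of -6.45 (adjusted p = 5.74e-05). That p-value holds the spread of HH alone and is no added support. Of 8 sensing genes tested, 2 were higher (against 18.7% of all genes) in MyLa and 0 lower: TLR7, the endosomal receptor for single-stranded RNA, with 11.74 and 11.84 in MyLa, against 2.13 and 2.13 in HH, and SAMHD1, which depletes nucleotides (1.22, adjusted p = 0.0337). Of 6 brakes on signalling 2 were higher in MyLa, SOCS1 (3.31) and SOCS3 (a bound of 6.34), and 1 was lower, PTPN6 (-1.18), against the same 18.7% and 16.8% of all genes.

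The other question was what IL-32γ did to these transcripts within each line. In MyLa, ISG15, IFITM2, IFITM3 and ISG20 were higher by 1.5-fold or more with IL-32γ, and PARP9, IFIT1 and TRIM21 were lower. In HH no member was higher by that much, and HERC6 and IFIT3 were lower. With 1 array per condition these differences have no replicate check and are given untested, since so few arrays limit the precision. In MyLa 4 of 33 measured members were higher (12.1%, against 7.77% of 10497 genes) and 3 lower (9.09%, against 7.65%), with a median difference of -0.06, against -0.07 over all genes. In HH 0 of 32 were higher (against 1.14% of 10307 genes) and 2 lower (6.25%, against 4.46%), with a median of -0.06, against -0.07. The shares of lower members in both lines, and both medians, lay near those of all genes. None of the 24 members measured in both lines passed 1.5-fold in both.

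ISG15, with the values given above, was 1.23 (2.35-fold) higher with IL-32γ in MyLa and 0.09 higher in HH. Its only probe set is also of the kind that can match several transcripts. ISG20, an exonuclease for single-stranded RNA, read 12.45 with IL-32γ and 11.62 in the control in MyLa (0.83), and 11.44 and 11.44 in HH. Its other probe set gave 0.93 in MyLa and -0.02 in HH, so both probe sets of ISG20 were higher with IL-32γ in MyLa and level in HH. IFITM2 differed by 1.03 and IFITM3 by 0.85 in MyLa, and by -0.02 and -0.07 in HH. IFITM1 stood at -0.06 in MyLa and 0.08 in HH, and the probe set shared by IFITM1 and IFITM2 read the same value, 13.27, with IL-32γ and in the control in MyLa. The IFITM2 probe set and the shared one thus gave different responses. On the same MyLa arrays the 5′ probe set of ACTB was higher by 1.69 with IL-32γ and that of GAPDH by 0.68, while their 3′ probe sets stood at -0.08 and 0.04. In HH that of ACTB was higher by 0.89 and that of GAPDH by 0.15. The part of RNA quality in these responses was not tested.

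Lower values with IL-32γ in MyLa were those of PARP9 (-0.99), IFIT1 (-0.76) and TRIM21 (-0.62). TRIM21, the cytosolic antibody receptor, read 8.73 with IL-32γ and 9.35 in the control. In HH TRIM21 read 9.15 with IL-32γ and 9.62 in the control (-0.47), so it lay lower with IL-32γ in both lines. DTX3L, the partner of PARP9, stood at -0.01 in MyLa. HERC6 in HH differed by -1.13 and stood just above the floor with IL-32γ. IFIT3 in HH differed by -0.82 in its brightest probe set and by -0.25 in the other, a bound since it was below 5 with IL-32γ, and IRF7 lay just inside 1.5-fold at -0.58. The other measured members lay between -0.52 and 0.44 in MyLa (26 genes) and between -0.58 and 0.49 in HH (30 genes).

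**Figure D5:**
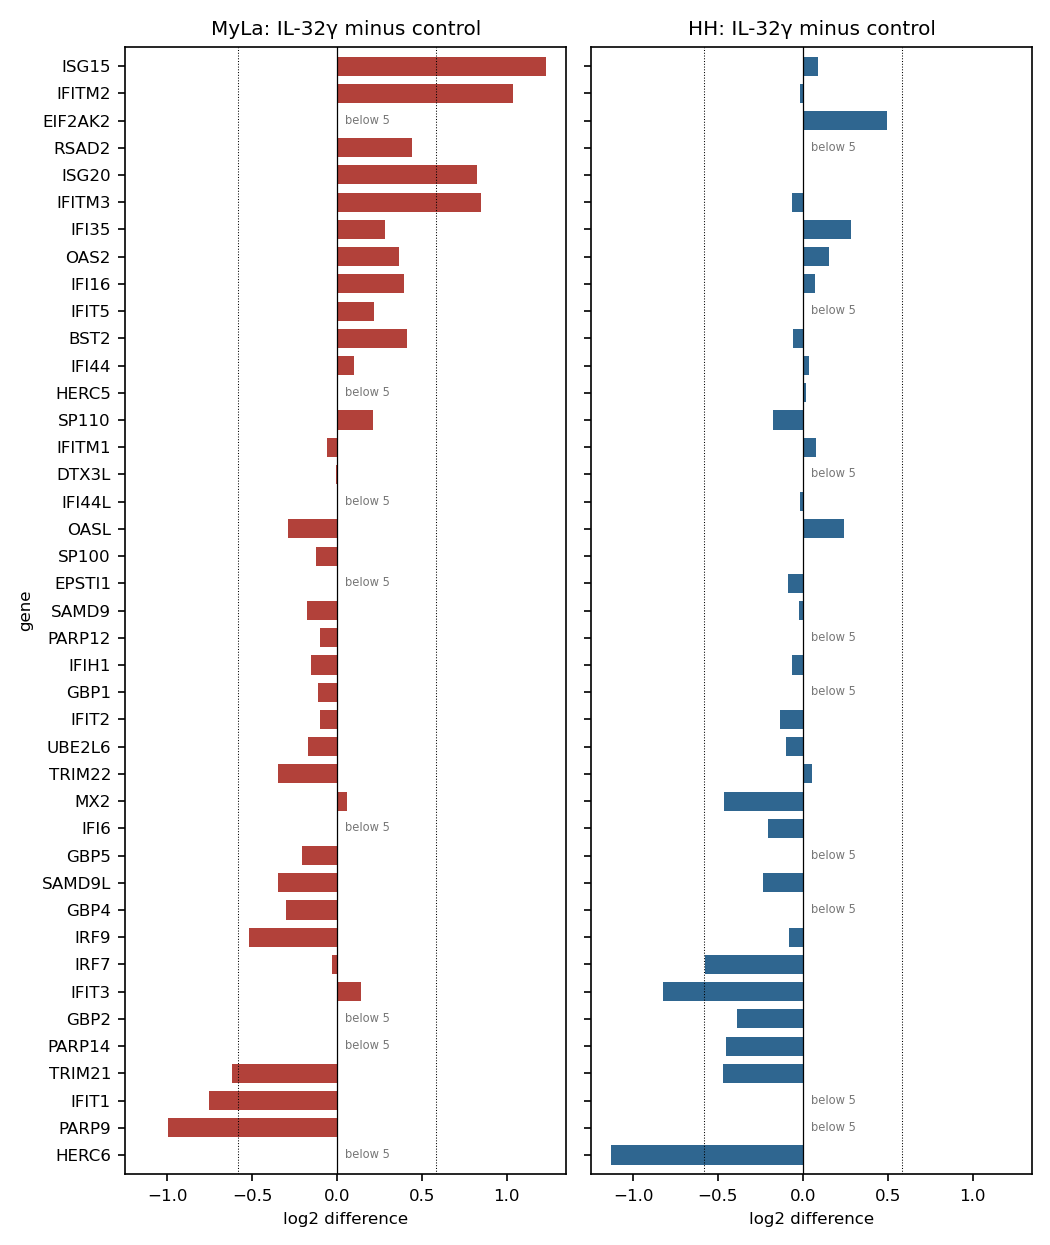
Difference between the IL-32γ and the control array (log2, values below 5 raised to 5) in MyLa (left) and HH (right) for the 41 members measured on at least 1 array; dotted lines mark 1.5-fold, and members below 5 on both arrays of a line are written so. ISG15 reaches 1.23 in MyLa and 0.09 in HH, and HERC6 reaches -1.13 in HH.

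Probe sets of the same gene differed by 1 or more in their response in 2 members, both in MyLa. OAS2 gave 0.36 in MyLa and 0.15 in HH in the probe set that stood for it, while another, at 5.90 with IL-32γ and 6.82 in the control in MyLa and 6.94 and 7.54 in HH, gave -0.92 and -0.61. In GBP1 the 3 measured probe sets gave -1.26, -0.11 and 0.16 in MyLa. IFIH1 stood at -0.15 in MyLa, and its other probe sets at -0.36 and -0.72. One probe set each of SP110 (0.74), SAMD9L (0.74), OASL (0.70) and IFI16 (0.65) passed 1.5-fold upward in HH, while the probe set that stood for the gene gave -0.18, -0.23, 0.24 and 0.07. The direction of the response depended on the probe set in OAS2 in both lines, and in SP110 in both lines (-0.33 to 0.34 in MyLa). It also did so in MyLa in GBP1, SP100 (-0.46 to 0.48) and OASL (-0.29 to 0.16), in HH in SAMD9L, and, with values nearer 0, in IFIT3 in MyLa, IFIH1, ISG20 and SP100 in HH, and IFI44 and SAMD9 in both.

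With the 2 lines as replicates and the line as a block in limma, which left 1 residual degree of freedom, 0 of 40 members and 0 of 11010 genes (0%) had an adjusted p under 0.05. The smallest adjusted p of a member was 0.544. At an unadjusted p under 0.05 there were 0 members higher (against 1.54% of genes) and 1 lower (2.5%, against 7.6%), TRIM21, with a mean log2 difference of -0.54 ± 0.11 SE (unadjusted p = 0.0142), lower in 2 of 2 lines. That count was 2 with a floor of 4, 5 with no floor and no filter and 0 without the line as a block. Whether the response of a member differed between the lines could not be tested with 1 array per condition. Of the other pathway lists, the interferon genes stayed below 5 with IL-32γ, and in MyLa 1 of 9 sensing genes was 1.5-fold higher (SAMHD1, 0.60), 1 of 9 was lower (STING1, the adaptor of DNA sensing, -0.73) and 1 of 8 receptor chains and kinases was lower (JAK2, -0.96), beside 7.77% of all genes higher and 7.65% lower. Another JAK2 probe set read 7.09 with IL-32γ and 6.77 in the control in MyLa, the opposite direction. Another SAMHD1 probe set read 5.02 with IL-32γ and 6.08 in the control in MyLa, so for both genes the direction depended on the probe set. The other STING1 probe set read 11.17 with IL-32γ and 11.46 in the control in MyLa, lower too but within 1.5-fold. Probe sets of other genes on these lists also moved. In MyLa 1 of IFNAR1 read 7.18 with IL-32γ and 5.26 in the control, and 1 of JAK1 read 5.75 and 7.06. The probe sets that stood for IFNAR1 and JAK1 gave -0.12 and -0.01. In HH 0 genes of the 5 lists passed 1.5-fold in the probe set that stood for them, but other probe sets did. There 1 of SAMHD1 read 4.29 with IL-32γ and 6.04 in the control, and 1 of IRF1 read 6.84 and 7.64. Upward, 1 of IFNAR2 read 11.19 and 10.58.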

How the data were processed

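Log2 expression values per probe set were deposited by the authors after GCRMA, per the submitters' processing notes (version not given in the sources used here). Whether the arrays were normalised jointly is not stated. Their range, 2.13 to 16.0, fits a log2 scale. Symbols came from the platform annotation, updated by Entrez identifier through RefSeq (GRCh38.p14): 41097 probe sets had 1 symbol, and 41043 of these matched. The probe set with the highest mean stood for a gene. Values below 5 were raised to 5. Responses needed 5 on 1 of 2 arrays, fits 5 on 2 of 4. Limma 3.58.1 in R 4.3.3 was run on 11010 genes, two-sided, with Benjamini-Hochberg adjustment over all of them, and was tested on simulated data. Values on all 4 arrays were given for members past a threshold or with probe sets that disagreed by 1 or more, and other pathway genes, up to 4 per list, by size of difference; IFNAR1, IFNAR2, IFNB1 and the cell type markers were named outside that rule, after their values were seen. Members and lists were chosen with earlier results of these data known. Alternatives were floors of 4 and 6 or none, other scalings, probe set choices, fold minimums, model terms and leaving out arrays. Some pathway genes are not analysed here. Python 3.11.15, pandas 2.3.3, numpy 2.4.6 and matplotlib 3.10.9 were used.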

Additional observations from a re-analysis of the deposited data

Results flagged for a closer look

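In 3 members that passed 1.5-fold in a line, the difference between the IL-32γ and the control array had opposite signs in MyLa and HH. IFITM2 was at 1.03 in MyLa and -0.019 in HH (log2), and IFITM3 at 0.85 in MyLa and -0.065 in HH. IFIT3 was at 0.14 in MyLa and -0.82 in HH, but its other measured probe set had the same sign in both, at -0.06 in MyLa and -0.25 in HH. The difference between the lines was not tested, and the smaller value of each member was close to 0. In HH the values of IFITM2 and IFITM3 lay nearer 0 than the median over all genes, -0.068.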

How the results depend on the processing

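With x_at and s_at probe sets dropped, as open to cross-matches, there was 1 member higher with IL-32γ in MyLa (4 in the report), and 10 were higher (19) and 7 lower (5) in MyLa than in HH, of 29 members then tested in place of 40, so the balance of higher to lower calls moved as well. Over all genes 19.2% were then higher and 18% lower. PARP12, PARP9, IFIT5, IFITM1, IFITM2, IFITM3, IRF7 and IFI35, called in the report, were measured by such probe sets alone. They had no value in that run, nor had ISG15, so that ISG20 was the member left higher with IL-32γ in MyLa. At 2-fold, 2 members were higher and 0 lower with IL-32γ in MyLa, and 1 lower in HH. Counting each probe set by itself gave 6 lower in MyLa and 4 higher in HH, and, between the lines, a choice made after seeing the data, 9 lower in MyLa. No floor gave 1 higher in HH, a floor of 6 gave 1 lower in HH, and averaging probe sets per gene gave 0 lower in HH and 3 lower in MyLa than in HH (5 in the report). Without a fold minimum 8 members were lower in MyLa than in HH. Searching GAAANGAAA (1 base between the repeats) found 13 of 38 promoters (28). Leaving out each array in turn gave 10 to 17 members higher in MyLa than in HH, 4 to 6 lower and 16 to 22 called, with fewer degrees of freedom. With IL-32γ as a term, a replicate block over conditions, the fit called 24, as without it, and without the line as a replicate block the IL-32γ fit called 0, as with it. Of the 24 members called between lines, 12 kept their call and direction in every alternative that gave a value, and 0 of the other 12 changed direction. Of the 12 that kept their call, only IFIT2, IFITM1 and MX2 were measured in both lines. For the rest, the direction was fixed in runs with a floor and the same probe set. Their p-values there held the spread of 1 line alone, so their kept calls are no added support. Leaving out an array ended the IL-32γ fit, with no residual degrees of freedom.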
